A study of Mus musculus with 2 samples.

Results

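Transcripts of the transforming growth factor beta (TGF-beta) pathway were measured in single cells of the embryonic mouse coronal suture, the fibrous joint between the frontal and parietal bones. The genes comprise 3 ligands (*Tgfb1*, *Tgfb2* and *Tgfb3*), 2 latency proteins (*Ltbp1* and *Ltbp3*), 4 receptors (*Tgfbr1*, *Tgfbr2*, *Tgfbr3* and *Eng*) and the matrix gene *Tgfbi*. They were chosen by name, as 10 of the 27514 genes listed in both libraries. The rule uses no measured value, but earlier results of these data were known when the genes were chosen. Coronal sutures of wildtype C57/BL6 embryos were dissociated, with small pieces of adjoining bone, and their RNA was captured on the 10x Genomics Chromium platform with 3′ reagents. Each stage has 1 deposited count matrix, referred to as its library. The E15.5 library came from 10 pooled sutures treated with collagenase II and dispase, after which a kit removed dead cells. For the E17.5 library, 16 sutures from 2 litters were processed as 3 batches, with collagenase IV and a sort for live single cells, and the barcodes carry a suffix from 1 to 3. Stage, enzyme, sorting, embryos, sequencing centre, reads per cell and the list of genes differ together and cannot be told apart. The version of the counting software may differ as well, as the E15.5 file names another than the methods do. No test between the stages was possible.

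The authors assigned the osteogenic and mesenchymal cells to 15 clusters, which were used as deposited. EC1 to EC4 are ectocranial layers outside the bones, with EC4 directly above the suture, and LIG is a ligament-like layer next to EC4. OG1 to OG4 are osteogenic cells from progenitors (OG1) to osteoblasts (OG4), and PO1 and PO2 are their proliferating relatives. MG1 and MG2 are periosteal dura. MG3 is dura mater, which the paper proposes as the dural border layer, and MG4 is the arachnoid layer, which also carries dura markers. Most markers that were checked followed these names. The paper's markers for OG1 (*Erg*, *Pthlh*), OG2 (*Lef1*, *Inhba*) and OG3 (*Mmp13*, *Podnl1*) were not among them. *Sp7* and *Ifitm5* were highest in OG4, *Pi16* in EC2, *C1qtnf3* in EC4, *Mkx* in LIG and *Top2a* in PO2 of both libraries. The MG clusters carried the highest *Crabp2*, *Gja1* and *Matn4* in both libraries. The tendon genes used for LIG did not all follow it, as *Scx* was highest in MG2 of both libraries and *Tnmd* in MG1 at E17.5.

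TGF-beta is secreted as a latent complex, in which the mature ligand is held by its propeptide and tethered to the matrix by latent TGF-beta binding proteins such as *Ltbp1* and *Ltbp3*. Once released, the ligand binds the type II receptor *Tgfbr2*, which recruits and phosphorylates the type I receptor *Tgfbr1*, and SMAD proteins carry the signal to the nucleus. *Tgfbr3* (betaglycan) and *Eng* (endoglin) are co-receptors, and betaglycan is best known for presenting the *Tgfb2* ligand, which binds *Tgfbr2* poorly without it. In bone, the ligands are stored in the matrix by osteoblasts, and in sutures they are known for roles in patency and fusion.

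On GRCm38 (mm10), the ligand genes lie at chr7:25687002-25705077 (*Tgfb1*), chr1:186622792-186705989 (*Tgfb2*, minus strand) and chr12:86056745-86079041 (*Tgfb3*, minus strand). The latency genes lie at chr17:75005568-75392512 (*Ltbp1*) and chr19:5740904-5758532 (*Ltbp3*), and *Tgfbi* at chr13:56609523-56639562. The receptor genes lie at chr4:47353222-47414931 (*Tgfbr1*), chr9:116084293-116175360 (*Tgfbr2*, minus strand), chr5:107106570-107289629 (*Tgfbr3*, minus strand) and chr2:32646595-32682669 (*Eng*). All 10 are protein-coding, and no other listed gene overlapped them on the same strand. RefSeq promoter windows, from 250 bases before to 50 after the start, were matched for 8 of the 10 genes, the exceptions being *Tgfb3* and *Tgfbr3*. The windows of *Tgfb1* (highest in OG4), *Tgfb2* (highest in MG3) and *Ltbp1* (highest in EC4 and LIG) are shown because these genes led in different layers and their windows held different motifs. The capitals mark matches on either strand to the GC box GGGCGG, the TATA box TATAAA, the E-box CACGTG and the cAMP response element TGACGTCA. The windows are chr7:25686752-25687051 (plus strand), chr1:186705940-186706239 (minus strand) and chr17:75005279-75005578 (plus strand) of GRCm38.p6, written 5′ to 3′.
Tgfb1: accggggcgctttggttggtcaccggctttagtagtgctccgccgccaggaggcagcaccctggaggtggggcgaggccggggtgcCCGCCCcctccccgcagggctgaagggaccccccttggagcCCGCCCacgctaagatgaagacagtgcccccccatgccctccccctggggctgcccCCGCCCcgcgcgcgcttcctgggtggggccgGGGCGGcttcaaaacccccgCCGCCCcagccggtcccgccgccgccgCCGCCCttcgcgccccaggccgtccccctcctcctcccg
Tgfb2: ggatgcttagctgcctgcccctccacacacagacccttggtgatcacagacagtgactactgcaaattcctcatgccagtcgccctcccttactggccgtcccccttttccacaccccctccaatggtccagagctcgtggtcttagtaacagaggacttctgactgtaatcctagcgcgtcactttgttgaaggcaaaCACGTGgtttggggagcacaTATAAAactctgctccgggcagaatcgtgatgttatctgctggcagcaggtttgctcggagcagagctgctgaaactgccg
Ltbp1: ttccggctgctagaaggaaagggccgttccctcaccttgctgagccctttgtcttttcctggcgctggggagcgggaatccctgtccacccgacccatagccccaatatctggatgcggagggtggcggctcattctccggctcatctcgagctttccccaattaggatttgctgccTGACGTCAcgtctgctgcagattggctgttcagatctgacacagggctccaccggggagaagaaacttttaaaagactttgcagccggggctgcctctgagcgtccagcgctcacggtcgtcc
The *Tgfb1* window held 6 GC boxes, which occur in 35.7% of 32851 promoter windows, and no TATA box. The *Tgfb2* window held 1 TATA box (13.6% of windows) and 1 E-box (7.15%). The *Ltbp1* window shown, 1 of 2 for this gene, held 1 cAMP response element, which 1.79% of windows contain. The other *Ltbp1* window held none of these motifs. G and C made up 77% of the *Tgfb1* window and 54.3% of the *Tgfb2* window, against a median of 52.7% over all windows. A match is a description of the letters and not of a used site.

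For each cluster and library, the UMIs (unique molecular identifiers, each standing for 1 captured transcript) of a gene were summed and scaled to 1000000 UMIs of the cluster, as CPM. Pairs of values are given with E15.5 first and E17.5 second. The 5335 labelled E15.5 cells held 48607817 UMIs and the 6830 labelled E17.5 cells 92585034, with medians of 8510 and 12302 per cell. The 10 genes took 17861 UMIs (0.0367%) at E15.5 and 40441 (0.0437%) at E17.5. MG1 and PO2 were small at E15.5, with 28 cells in the smallest cluster, and suffix 1 of E17.5 contains no MG1 cell. The libraries share between 5 and 19 cell barcodes per E17.5 suffix. Intervals are exact Poisson 95% intervals of the UMIs, or exact Clopper-Pearson intervals for the shares of ligand UMIs. Those of the ratios between stages are exact intervals given the UMIs of both libraries. All cover counting error only. A 3′ library counts transcripts and not their length, but capture differs between genes, so levels were compared between clusters and not between genes, apart from the ligand shares.

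Enrichment in a cluster was called where the level was at least 2 times that of the other labelled cells in both libraries. Of the 10 genes, 6 were enriched in at least 1 cluster, namely all 3 ligands, both latency proteins and *Tgfbi*, each in 2 clusters. None of the 4 receptors was. Over all 12150 genes with at least 50 UMIs in each library, 20.7% were enriched somewhere. Because the same cells defined the clusters, these levels are descriptive and no test.

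*Tgfb1* was highest in the osteoblast cluster. In OG4, *Tgfb1* measured 182 CPM (163 to 203) and 203 CPM (195 to 212). OG3, the *Mmp13* and *Podnl1* preosteoblast cluster, followed with 61.8 CPM (49 to 77) and 128 CPM (122 to 135), and PO1 came next with 32.3 and 72.3 CPM. Among neighbours in this order, OG4 and OG3, and OG3 and PO1, were separated beyond their counting intervals in both libraries. The lowest value was in EC2, with 2.5 CPM and 12.1 CPM, and the median cluster had 7.64 and 24.7 CPM. Relative to the other labelled cells, OG4 was 20.2-fold and 4.32-fold higher, and OG3 was 4.35-fold and 2.35-fold higher. In OG4, 72.1% and 92.8% of cells had a *Tgfb1* UMI, against 2.38% and 14.1% in EC2. The median depth was 7352 and 19349 UMIs per cell in OG4 and 9732 and 12602 in EC2. When each cell was thinned to 3000 UMIs, which left out 160 E15.5 cells and none at E17.5, the OG4 share was 44.9% and 47.2%, and the EC2 share was 0.773% and 3.45%. Across the 3 suffixes of E17.5, OG4 ranged from 196 to 223 CPM and OG3 from 115 to 138 CPM. *Tgfb1* was at least 2-fold below the other cells in EC2, EC3, EC4, LIG, MG1, MG3 and MG4 of both libraries.

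*Tgfb2* was highest in MG3, of the dura, and MG4, the arachnoid layer. MG3 held 175 CPM (157 to 194) and 119 CPM (105 to 135), and MG4 held 96.3 CPM (74.2 to 123) and 109 CPM (94.7 to 125). MG3 and MG4 were separated at E15.5 but their intervals overlapped at E17.5. The other meningeal clusters came next in both libraries, with 61.1 and 84.3 CPM in MG1 and 88.6 and 58.7 CPM in MG2. The lowest level was in OG4, at 6.63 CPM (3.43 to 11.6) and 16.8 CPM (14.4 to 19.4), and the median cluster had 37.1 and 38.4 CPM. OG4 was thus highest for *Tgfb1* and lowest for *Tgfb2*. The 4 meningeal clusters averaged 105 and 92.8 CPM, which was 3.24-fold and 2.86-fold above the mean of the other 11. In the E17.5 suffixes with at least 20 cells, MG3 ranged from 108 to 144 CPM and MG4 from 104 to 113 CPM.

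*Tgfb3* was highest above the suture and in the periosteal dura. EC4 had 151 CPM (140 to 164) and 183 CPM (170 to 195), and MG2 had 140 CPM (127 to 154) and 172 CPM (161 to 185). The intervals of EC4, LIG and MG2 overlapped between neighbours at E15.5, and those of EC4 and MG2 at E17.5. LIG fell short of the enrichment call only through E17.5, where its 116 CPM was 1.38-fold above the other cells, after 149 CPM and 3.03-fold at E15.5. OG4 was again lowest, with 9.95 CPM (5.9 to 15.7) and 39.5 CPM (35.8 to 43.5), and the median cluster had 34.5 and 84.7 CPM. A *Tgfb3* UMI was found in 65.7% and 77.3% of EC4 cells and in 8.95% and 52.8% of OG4 cells. At 3000 UMIs per cell these were 35.8% and 38.9% in EC4 and 4.55% and 11.6% in OG4. The suffixes of E17.5 gave EC4 values from 163 to 225 CPM and MG2 values from 149 to 224 CPM, the highest being suffix 1 in both.

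**Figure D1:**
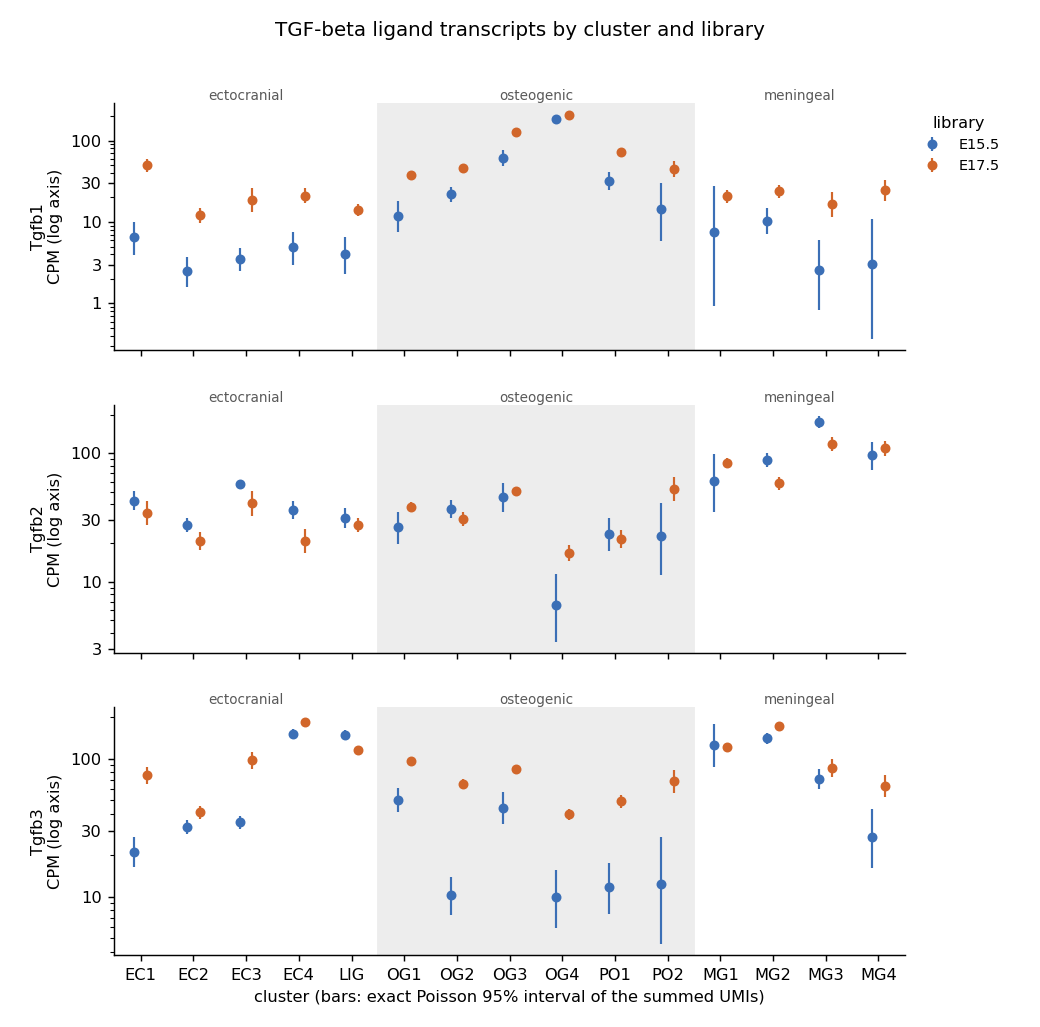
Levels of *Tgfb1*, *Tgfb2* and *Tgfb3* in CPM (log axis) for the 15 clusters, with 1 point per library and exact Poisson 95% intervals as bars. *Tgfb1* peaks in OG4 at 182 and 203 CPM, *Tgfb2* in MG3 at 175 and 119 CPM, and *Tgfb3* in EC4 at 151 and 183 CPM.

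The mix of ligands differed by layer. Of the UMIs of the 3 ligands in OG4, *Tgfb1* took 91.7% (88.3 to 94.3) and 78.3% (76.7 to 79.8). In LIG, *Tgfb3* took 80.9% (77.8 to 83.6) and 73.5% (71.2 to 75.8), and in EC4 it took 78.7% and 81.3%. *Tgfb3* also took the largest share over all labelled cells, at 47.8% and 45.4%, and in EC2, OG1, MG1 and MG2 of both libraries, so its lead was not particular to LIG and EC4. In MG3, *Tgfb2* took 70.2% (65.9 to 74.2) and 53.8% (49 to 58.4), and in MG4 it took 76.2% (65.7 to 84.8) and 55.3% (50.2 to 60.5). MG2 carried both, with 58.5% and 67.7% from *Tgfb3* and 37.1% and 23% from *Tgfb2*. The share of *Tgfb1* in MG3 was 1.02% and 7.52%. Differences in how well each transcript is captured enter these shares but were not measured here.

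**Figure D2:**
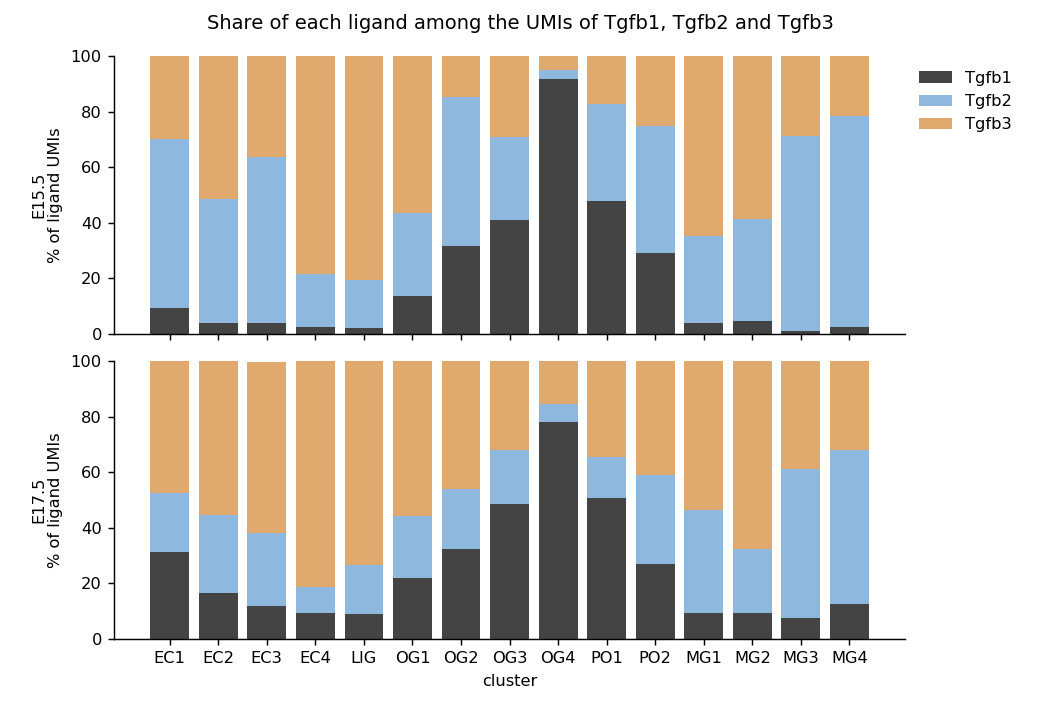
Percent of all UMIs of the 3 ligands that belonged to *Tgfb1*, *Tgfb2* or *Tgfb3*, as stacked bars for each cluster, with E15.5 above and E17.5 below. *Tgfb1* fills most of OG4 (91.7% and 78.3%), *Tgfb3* most of EC4 and LIG, and *Tgfb2* most of MG3 and MG4.

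*Ltbp1* was highest above the suture and *Ltbp3* in the periosteal dura, where *Ltbp1* was also high. *Ltbp1* was enriched in EC4, with 100 CPM (90.7 to 110) and 114 CPM (104 to 124), and in LIG, with 105 CPM (94.7 to 115) and 70.5 CPM (65.2 to 76.1). MG1 overlapped EC4 at E17.5, at 109 CPM (101 to 118), but rested on 19 UMIs at E15.5, where it was 72.5 CPM (43.7 to 113). *Ltbp1* was at least 2-fold below the other cells in OG2, OG3, PO1, PO2 and MG4 of both libraries, and the lowest values were in OG3 at E15.5 and, with 9.48 CPM, in MG4 at E17.5. Within the meninges, MG2 held 74.5 and 63.8 CPM, MG3 30 and 17.6 CPM, and MG4 18.1 and 9.48 CPM. The MG3 level at E17.5 was uneven, with 34.6, 14.2 and 9.28 CPM in suffixes 1, 2 and 3, and without suffix 1 it was 10.9 CPM (6.25 to 17.8). The suffixes of E17.5 ranged from 101 to 122 CPM in EC4 and from 70.2 to 70.8 CPM in LIG.

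*Ltbp3* was enriched in the periosteal dura. MG1 had 141 CPM (99.5 to 195) and 107 CPM (98.2 to 116), and MG2 had 103 CPM (91.5 to 115) and 140 CPM (129 to 151). MG3 followed with 78.3 and 80.4 CPM, and the median cluster had 25.5 and 41.6 CPM. An *Ltbp3* UMI was found in 57.1% of MG1 and 54.6% of MG2 cells at E15.5 and in 68.3% of both at E17.5, and after thinning to 3000 UMIs in 37%, 27.3%, 27.7% and 34.7%. The order of MG1 and MG2 was not the same in the libraries, and only at E17.5 were their intervals apart. OG2, the *Lef1* and *Inhba* osteogenic cluster, was lowest at E15.5 with 7.56 CPM, and OG4 was lowest at E17.5 with 20.1 CPM. OG4 moved against most clusters, from 42.6 CPM (33.6 to 53.2) to 20.1 CPM.

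*Tgfbi* encodes a secreted adhesion protein of the matrix and was first described as a gene induced by TGF-beta. It was enriched in MG3, with 198 CPM (179 to 219) and 122 CPM (107 to 138), and in MG4, with 75.2 CPM (55.8 to 99.2) and 133 CPM (117 to 150). MG2 narrowly missed the call, at 4.4-fold and 1.99-fold. *Tgfb2* was also high in these clusters, and in MG1, with 61.1 and 84.3 CPM. *Tgfbi* was lowest in EC2 of both libraries, with 9.34 and 13.3 CPM. MG1 stood apart, at 199 CPM (148 to 260) from 52 UMIs at E15.5 and 18.7 CPM (15.3 to 22.7) from 103 UMIs at E17.5. The suffixes of E17.5 that contain MG1 cells gave 16.8 and 20.2 CPM there, while in MG3 the suffixes spread from 83.1 to 190 CPM. The summed cartilage markers *Matn1*, *Acan* and *Col9a1*, all 3 detected, were also highest in MG1, at 420 CPM at E15.5 and 215 CPM at E17.5, against cluster medians of 162 and 55 CPM. *Acan* and *Col9a1* were each highest in MG1 of both libraries, but *Matn1* was highest in OG3 at E15.5 and in MG4 at E17.5. The paper reports *Acan* and *Col2a1* in MG1 itself, above MG2 though below true chondrocytes. Unlabelled cells positive for the cartilage markers had 229 and 157 CPM of *Tgfbi*, and the part of such transcripts in the MG1 values was not tested.

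**Figure D3:**
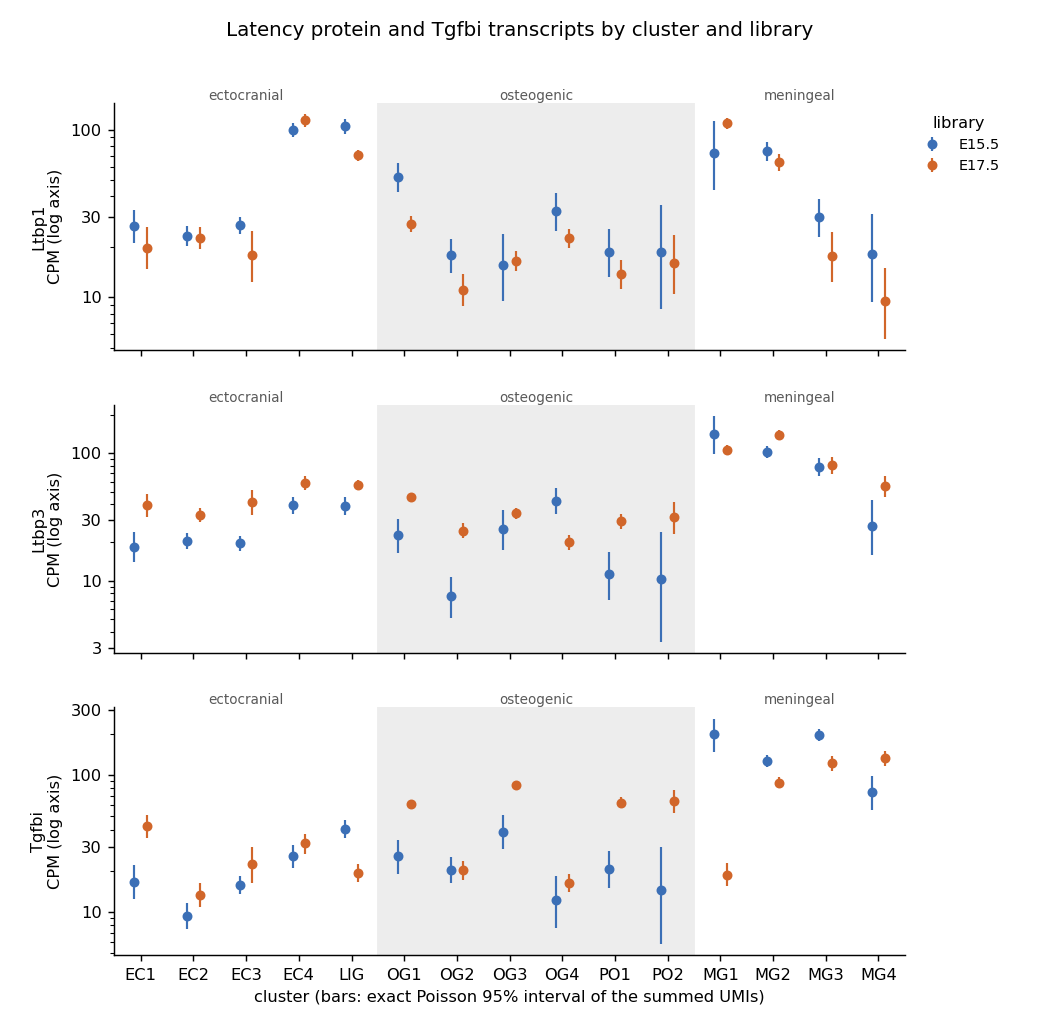
Levels of *Ltbp1*, *Ltbp3* and *Tgfbi* in CPM (log axis) for the 15 clusters, with 1 point per library and exact Poisson 95% intervals as bars. *Ltbp1* is highest in EC4, LIG and MG1, *Ltbp3* in MG1 and MG2, and *Tgfbi* in the meningeal clusters, except for the 18.7 CPM of MG1 at E17.5.

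By region, 3 of the 10 genes (*Tgfb2*, *Ltbp3* and *Tgfbi*) averaged at least 2-fold higher over the 4 meningeal clusters than over the other 11 in both libraries, against 3.47% of the genes tested. Likewise, 3 (*Tgfbr2*, *Ltbp1* and *Ltbp3*) averaged at least 2-fold lower over the 6 osteogenic clusters than over the other 9, against 6.51% of genes. In OG4, 5 of the 10 (*Tgfb2*, *Tgfb3*, *Tgfbr2*, *Tgfbr3* and *Tgfbi*) were at least 2-fold below the other cells in both libraries, against 15.3% of genes. These comparisons were set after the levels had been seen.

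At E15.5 the receptors spread less over the clusters than the ligands, with 1.97-fold to 13.1-fold between the highest and the lowest cluster against 15.2-fold to 73-fold, whereas at E17.5 the ranges overlapped, with 3.14-fold to 21.2-fold against 4.62-fold to 16.8-fold. *Tgfbr1*, the type I receptor kinase, ranged 1.97-fold over the 15 clusters at E15.5, from 23.2 CPM in OG3 to 45.8 CPM in MG3, and 3.14-fold at E17.5, from 17.2 CPM in OG2 to 53.9 CPM in MG3. No pair of neighbours was separated at E15.5, and only MG3 and MG4 at E17.5. MG3 was the highest cluster in both libraries, but its 1.46-fold excess at E15.5 did not reach the limit that its 2.43-fold excess at E17.5 passed.

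*Tgfbr2*, the type II receptor that binds the ligand, was lowest in the osteoblast cluster. EC2 was highest, with 68.5 CPM (63.3 to 74.1) and 103 CPM (96.3 to 111), followed by MG2 with 61 and 97.5 CPM. OG4 had 14.4 CPM (9.39 to 21.1) and 14.7 CPM (12.4 to 17.2). OG3 had 20.1 and 20.8 CPM and PO1 had 21.1 and 23.9 CPM, and all 3 were at least 2-fold below the other cells in both libraries. The osteogenic clusters averaged 24.8 and 24.7 CPM, the ectocranial ones 55.1 and 66.4 CPM, and the meningeal ones 43.4 and 70.1 CPM. Over the 15 clusters, *Tgfbr2* and *Tgfb1* were inversely related, with r = -0.80 at E15.5 and r = -0.86 at E17.5 on the log2(CPM + 10) scale. This is a description over 15 points that share cells and depth.

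*Tgfbr3* was low in OG4 of both libraries, with 4.42 CPM (1.91 to 8.71) and 2.38 CPM (1.54 to 3.52). In OG2, PO1 and PO2 its level was lower at E17.5. OG2 had 55.3 CPM (48.4 to 63) from 227 UMIs at E15.5 and 5.04 CPM (3.6 to 6.87) from 40 UMIs at E17.5. PO2 had 57.8 CPM (38.4 to 83.6) and 5.56 CPM (2.54 to 10.5), and PO1 had 41.6 CPM (33.2 to 51.5) and 7.01 CPM (5.22 to 9.22). Without suffix 3, PO2 had 3.67 CPM at E17.5. OG1 had 18.2 and 8.37 CPM, and in OG3 the counting interval of the ratio between the stages included 1. Outside the osteogenic clusters, EC1 had 44.2 and 12.7 CPM, LIG 23.1 and 10.4 CPM, EC4 32 and 16.7 CPM, and MG1 38.2 and 16 CPM, while EC2 had 38.9 and 50.4 CPM and MG3 44.3 and 48 CPM. PO2 and OG2 led the order at E15.5 and EC2 and MG3 at E17.5. All E17.5 suffixes were low in OG2, from 3.44 to 10.3 CPM. At 3000 UMIs per cell, 14.9% and 0.958% of OG2 cells had a *Tgfbr3* UMI.

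*Eng*, a co-receptor best known from endothelial cells, was lower in the labelled clusters than in endothelial cells. It ranged from 3.82 CPM in MG1 (1 UMI) to 32.5 CPM in EC1 at E15.5, and from 11.8 CPM in MG3 to 49.3 CPM in EC2 at E17.5. No neighbours in either order were separated. The ectocranial clusters averaged 29.6 and 37.5 CPM and the meningeal ones 8.61 and 23.1 CPM. Unlabelled cells with UMIs of at least 2 of the endothelial markers *Pecam1*, *Cdh5* and *Kdr* had 99.2 CPM (63.6 to 148, 24 cells) and 411 CPM (92 cells) of *Eng*. The sum of these markers in the labelled clusters ranged from 2.07 to 87.3 CPM at E15.5 and from 1.85 to 84.8 CPM at E17.5, with all 3 detected, and was highest in MG4 and MG3, where *Eng* was low. Most of it was *Cdh5*, with 82.8 CPM in MG4 at E15.5 and 81.3 CPM in MG3 at E17.5.

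**Figure D4:**
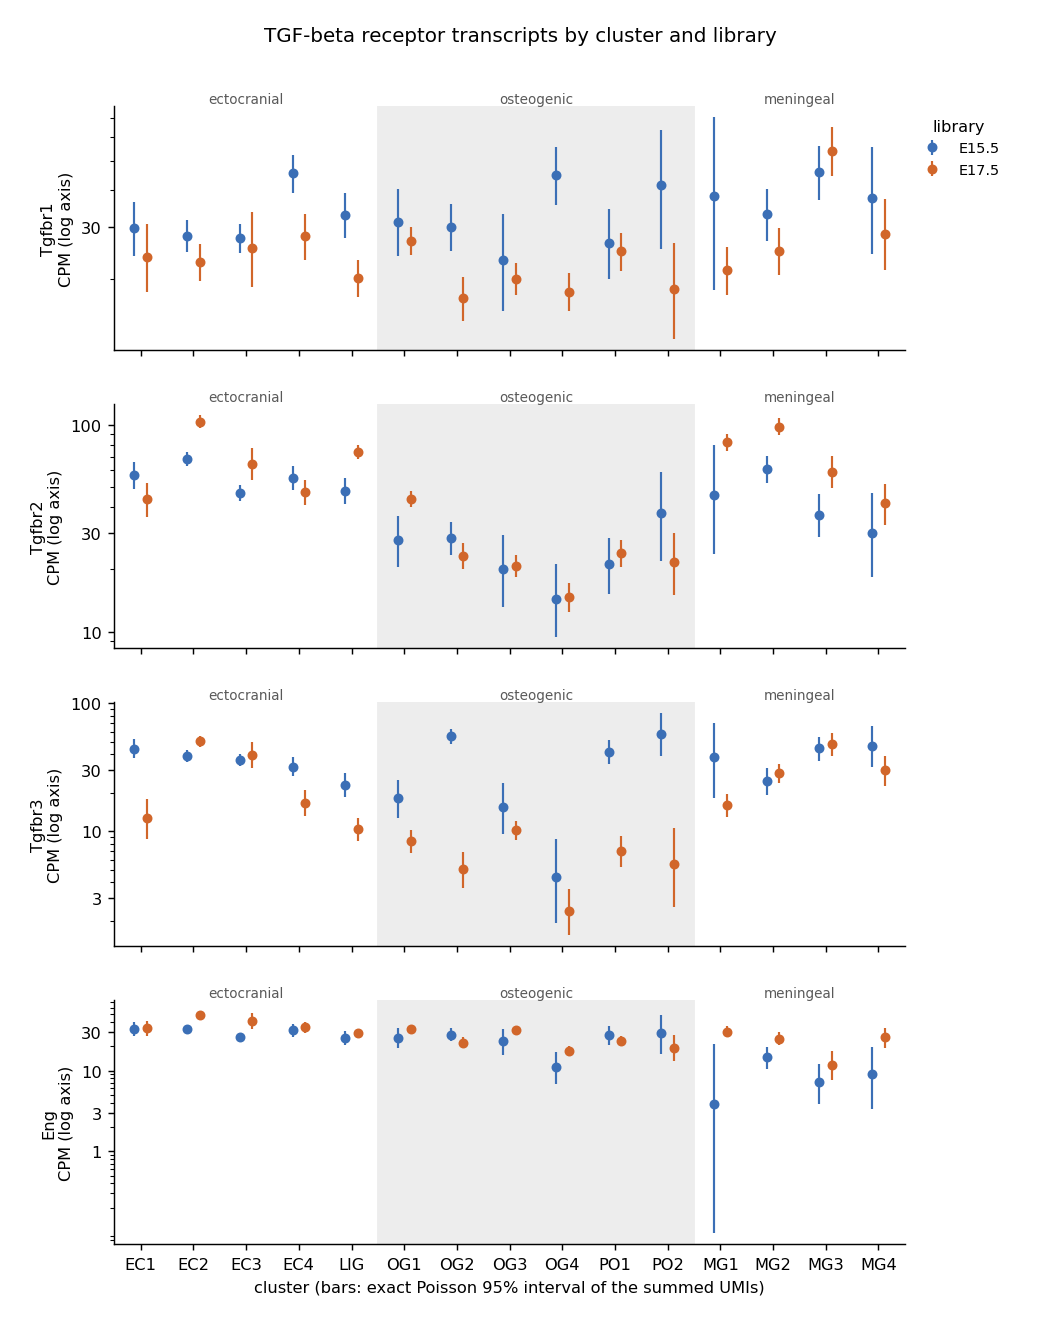
Levels of *Tgfbr1*, *Tgfbr2*, *Tgfbr3* and *Eng* in CPM (log axis) for the 15 clusters, with 1 point per library and exact Poisson 95% intervals as bars. *Tgfbr2* is lowest in OG4 (14.4 and 14.7 CPM), and *Tgfbr3* in OG2 is at 55.3 CPM in one library and 5.04 CPM in the other.

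Between the libraries, the pattern over the 15 clusters was repeated for some genes more than for others. The correlation of the 2 libraries' levels was r = 0.95 for *Tgfb1*, 0.93 for *Ltbp1*, 0.85 for *Tgfb3*, and 0.83 for each of *Tgfb2*, *Tgfbr2* and *Ltbp3*. It was lower for *Eng* (0.48), *Tgfbi* (0.45), *Tgfbr1* (0.33) and *Tgfbr3* (0.32). With every cluster given equal weight, none of the 10 genes differed by 2-fold or more between E17.5 and E15.5. With all labelled cells summed instead, 2 did, *Tgfb1* and *Tgfbr3*. Of all genes tested, 3.82% were at least 2-fold higher and 6.95% at least 2-fold lower at E17.5, by the equal weights, and the median log2 ratio was 0.02.

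*Tgfb1* came closest, with a mean of 24.7 CPM and 49 CPM, a ratio of 1.99. It was higher at E17.5 in 15 of 15 clusters, and the counting interval of the ratio was above 1 in 13. The ratio was smallest in OG4, at 1.11 (0.992 to 1.26), and the median cluster ratio was 3.19. EC1 went from 6.5 to 49.8 CPM, a ratio of 7.66 (4.76 to 13), and EC2 from 2.5 to 12.1 CPM, a ratio of 4.84 (3.04 to 7.99). OG4 weighs most in the mean over clusters. Summing all labelled cells instead, of whose UMIs the osteogenic clusters held 24% and 56.3%, gave a ratio of 4.18. Myeloid transcripts in the labelled clusters were higher at E17.5 as well. The sum of *Csf1r*, *Pf4* and *Fcer1g* ranged from 16.5 to 39.7 CPM over the clusters at E15.5 and from 65.6 to 89.9 CPM at E17.5, with all 3 detected. Unlabelled cells positive for these markers had 100 CPM (435 cells) and 162 CPM (781 cells) of *Tgfb1*. At their ratio of *Tgfb1* to markers, the marker level in the labelled clusters would go with 0.465 to 1.12 CPM of *Tgfb1* at E15.5 and 1.7 to 2.32 CPM at E17.5. The osteoblast gene *Ifitm5* was also higher outside the osteogenic clusters, with a range of 5.59 to 12.7 CPM at E15.5 against 29.1 to 60.4 CPM at E17.5. At the ratio of *Tgfb1* to *Ifitm5* in OG4, that would go with 0.313 to 0.709 CPM of *Tgfb1* at E15.5 and 1.83 to 3.79 CPM at E17.5. At E17.5 the 2 values were 2.26 and 2.83 CPM in EC1, where 49.8 CPM were counted, and 2.3 and 2.12 CPM in EC2, where 12.1 CPM were counted. At E15.5 they were a larger part of the low counts, with 0.85 and 0.637 CPM of the 2.5 CPM in EC2 and 1.12 and 0.313 CPM of the 2.54 CPM in MG3. OG4 held 2133 of the 5996 labelled *Tgfb1* UMIs at E17.5 and OG3 held 1652, so the OG4 ratio leaves out other osteogenic sources. Endothelial marker-positive cells, with 267 CPM of *Tgfb1* at E17.5, are also outside these values. The part of carried-over transcripts in the counts was not tested.

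*Tgfb3* had a ratio of 1.52, with 59.5 and 90.6 CPM, and was higher in 13 of 15 clusters. The ratio was 6.39 (4.66 to 8.98) in OG2, 5.53 (2.46 to 15.4) in PO2, 4.18 (2.76 to 6.61) in PO1 and 3.97 (2.48 to 6.77) in OG4, but 1.92 in both OG1 and OG3. Among the ectocranial clusters it was 3.57 (2.68 to 4.81) in EC1 and 2.83 (2.36 to 3.37) in EC3. LIG was lower at E17.5, with a ratio of 0.775 (0.7 to 0.858). *Ltbp3* and *Eng* both had a ratio of 1.31 and *Tgfbr2* of 1.27, and they were higher in 13, 12 and 11 clusters. *Ltbp3* was lower in OG4, at 0.472 (0.362 to 0.622). The ratio of 7.9 (1.4 to 314) for *Eng* in MG1 rests on 1 UMI at E15.5.

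*Tgfbr3* had the lowest ratio, 0.559, with means of 34.7 and 19.4 CPM, and its interval was below 1 in 8 clusters. The ratio was 0.0912 (0.0634 to 0.128) in OG2, 0.0961 (0.0399 to 0.209) in PO2 and 0.169 (0.117 to 0.241) in PO1. The other 5 were EC1 at 0.286 (0.188 to 0.423), MG1 at 0.419, LIG at 0.452, OG1 at 0.46 and EC4 at 0.522. In OG3 the ratio was 0.658 (0.409 to 1.11). In EC2 it was above 1, at 1.3 (1.12 to 1.5). *Tgfbr1* had a ratio of 0.726 and was lower in 14 of 15 clusters, most of all in OG4 with 0.404 (0.31 to 0.531). *Ltbp1* had a ratio of 0.874 and was lower in 12 clusters. *Tgfb2* (0.934) and *Tgfbi* (0.954) were close to 1 in the mean, while their clusters moved both ways. *Tgfbi* ranged from 0.0942 (0.0669 to 0.134) in MG1 to 4.44 (2.08 to 11.3) in PO2, and *Tgfb2* from 0.579 (0.442 to 0.754) in EC4 to 2.53 (1.41 to 4.99) in OG4. The myeloid markers, at their ratio in marker-positive cells, would go with 2.17 to 2.97 CPM of *Tgfbi* at E17.5, and this part was not tested.

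**Figure D5:**
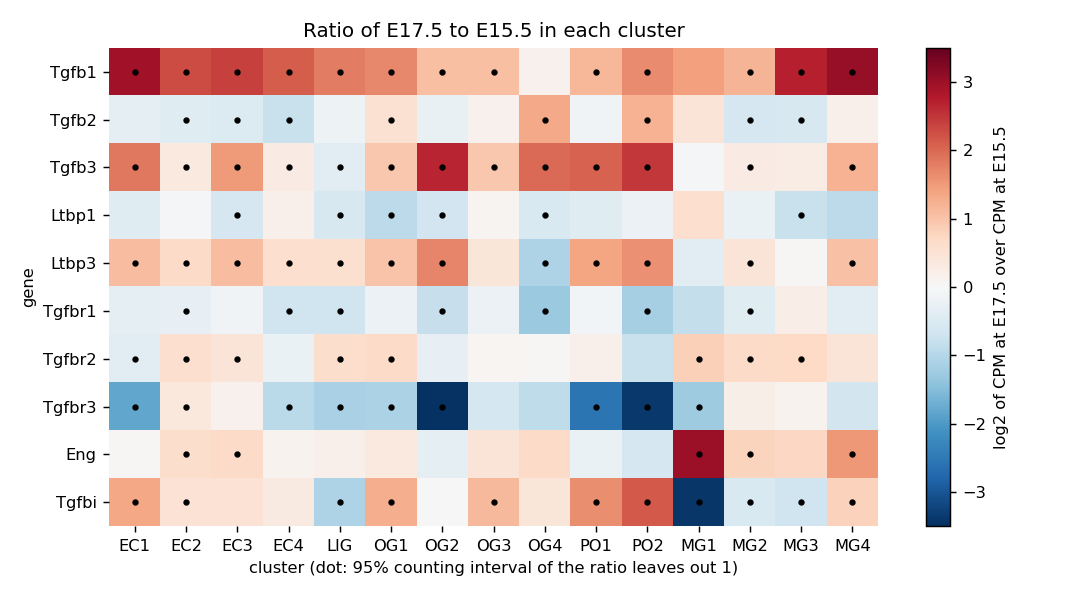
Log2 ratio of the E17.5 to the E15.5 level for each gene (rows) and cluster (columns), with a dot where the 95% counting interval of the ratio leaves out 1. *Tgfb1* is higher at E17.5 in all 15 clusters, and the lowest ratios are *Tgfbr3* in OG2 (0.0912) and PO2 (0.0961) and *Tgfbi* in MG1 (0.0942).

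The pathway around these genes was read from lists of its other genes. Of 17 latency and activation genes, 15 had enough UMIs to be tested and 5 were enriched, where 20.7% of all genes tested were: *Ltbp2* in MG1 and MG2, the Ltbp-anchoring fibrillin *Fbn1* and the integrin subunit *Itgb3* in EC2, the activator *Thbs1* in MG1, and *Lrrc32*, which tethers latent TGF-beta at the cell surface, in MG2, MG3 and MG4. *Lrrc32* in MG3 had 14.8 CPM and 31.9 CPM, a 3.74-fold and 11.9-fold excess. *Itgb6* and *Itgb8*, partners of the activating integrins, did not reach 50 UMIs in both libraries, with 12 and 1 UMIs of *Itgb6* and 42 and 63 of *Itgb8*. Of 13 transducers and inhibitors, 2 were enriched, namely the SMAD repressor *Skil* in EC4 (86 and 76.1 CPM) and the pseudoreceptor *Bambi* in OG4 (418 and 362 CPM). Of 6 other receptors, none was enriched. Of 5 proteoglycans that bind the ligand, 3 were, with *Bgn* in MG2, *Fmod* in MG1 and *Aspn* in EC4. Of 12 genes known to respond to TGF-beta (*Itgb1* is also in the latency list), 3 were enriched, among them *Ctgf* in MG2 (60 and 158 CPM) and *Acta2* in OG3 (178 and 467 CPM). The median ratio of E17.5 to E15.5 was 1.08 for the latency list, 1.08 for the transducers, 0.973 for the other receptors, 1.62 for the proteoglycans and 1.22 for the response genes, against 1.01 over all genes tested. Over all genes tested, 3.82% were at least 2-fold higher at E17.5 and 6.95% at least 2-fold lower. In the lists, those at least 2-fold higher were *Itgb5* (3.13), *Postn* (2.09), *Acta2* (3.49) and *Tagln* (4.85), and those at least 2-fold lower were the inhibitory *Smad7* (0.482) and the activin receptor *Acvr2a* (0.478).

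Among 11147 genes with at least 100 UMIs in each library, the genes most like each member over the 15 clusters were found by the smaller of the 2 libraries' r. For *Tgfb1* these were *Unc5b* (r = 0.95 and 0.96), *Fat3* (0.91 and 0.97) and *Elmo1* (0.89 and 0.96). For *Tgfb2* they included *Gulp1* (0.88 and 0.86) and *Snx2*, and for *Tgfb3* *9430020K01Rik* (0.90 and 0.84), *Gng8* and *Col8a2*. *Ltbp1* was nearest to *Ptgfrn* (0.91 and 0.83), *Pde3a* and *Mtus1*, and *Ltbp3* to *P3h3* (0.94 and 0.97), *Plpp1* and *Col16a1*. *Tgfbr2* was nearest to *Pxdn* (0.88 and 0.91), *Itm2a* and *Dcaf12l1*, and *Tgfbr3* to *Flnc* (0.85 and 0.83), *Lamc1* and *Aes*. The nearest genes of *Tgfbi* were *Mpped2* (0.88 and 0.85), *Prdm6* and *Tsc22d3*, those of *Eng* were *Pnrc1* (0.87 and 0.83), *Dlc1* and *Cnrip1*, and those of *Tgfbr1* were *Slc4a2* (0.76 and 0.84), *Arhgap27os2* and *Ept1*. Among the members themselves, *Ltbp1* and *Tgfb3* were alike (0.85 and 0.75), as were *Ltbp3* and *Tgfb3* (0.74 and 0.76), *Tgfb2* and *Tgfbi* (0.79 and 0.65), and *Ltbp3* and *Ltbp1* (0.64 and 0.64). The largest of many correlations over 15 points is high by selection, and the values are given as a description.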

How the data were processed

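Single cells of E15.5 and E17.5 coronal sutures were captured with 10x Genomics 3′ reagents. The authors deposited UMI counts per gene and barcode, not normalized and before their cell filters, and a table with the cluster of 5340 and 6830 osteogenic and mesenchymal cells, of which 5 E15.5 cells are missing from the matrix. The study's methods name Cell Ranger for counting on mm10 and Seurat 3.2.0 for clustering, but the E15.5 file is headed with version 3.1.0 of the counting software. That matrix lists 31053 genes and the E17.5 matrix 27998, and genes were matched by identifier. Hbb and Hba genes held 1.09% of labelled UMIs at E15.5 and 0.0546% at E17.5. All other columns of the cell table were left unused.

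Counts were summed per cluster and library and divided by the cluster's total to give CPM, using numpy 2.4.6, pandas 2.3.3, scipy 1.17.1 and matplotlib 3.10.9 under Python 3.11.15. Labelled cells outside the stated filters and possible doublets were kept. Intervals at 95% cover counting error only, not the spread between embryos or batches, and no p-value was computed because there is 1 library per stage. If the E17.5 suffixes are the 3 batches, they differ in embryos and litter as well as in handling, and which suffix is which batch is not given in the sources used here. Unlabelled cells within the filters (at least 1000 UMIs and 1000 genes, at most 7.5% mitochondrial and 3% Hbb and Hba UMIs) were taken as endothelial, myeloid, pericyte or cartilage marker-positive with UMIs of at least 2 of 3 markers of only that type. Named genes are the 10 members, the genes of the pathway lists and markers, and for each member the 3 genes with the highest smaller r of log2(CPM + 10). Of these, 2 genes are not reported here. The members, lists and comparisons were chosen with earlier results of these data known. The enrichment step was tested on simulated data. Alternatives covered cell filters, depth, thinning, doublets, suffixes, fold limits, size factors, small clusters and weighting. Gene positions follow GENCODE (GRCm38) and promoters come from RefSeq (GRCm38.p6).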

Additional observations from a re-analysis of the deposited data

Results flagged for a closer look

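Levels relative to the other labelled cells lay on opposite sides of 1 in the libraries in 3 places, each at least 1.5-fold on one side and 2-fold on the other, and the differences were not tested. Values are given for E15.5 first. *Tgfbr3* in OG2 was 1.66-fold and 0.31-fold. *Tgfbr3* in PO2 was 1.66-fold and 0.359-fold, from 28 and 9 UMIs. *Tgfbi* in MG1 was 5.85-fold and 0.387-fold, from 52 and 103 UMIs, with 28 and 423 cells in MG1.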

How the results depend on the processing

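The count of 6 members enriched in a cluster was the same 6 genes when the cell filters, depth, thinning, averaging, doublet limit, E17.5 suffixes, size factors or small clusters were changed. This count does not follow which clusters carried the calls. For *Tgfb3* at E17.5, the EC4 excess ranged from 1.99-fold to 2.39-fold. Its MG2 level, 2.1-fold above the other cells at 172 CPM, was 152 CPM (140 to 166) without suffix 1. At a 1.5-fold limit it was 7, with *Tgfbr2* added (44% of all genes), and at 3-fold it was 3, namely *Tgfb1*, *Tgfb2* and *Ltbp3* (8.69% of all genes). The count of 0 members at least 2-fold apart between the stages became 1 (*Tgfb1*) with cells within the stated filters, with cells of at least 3000 UMIs and without barcode suffix 2. It became 2 (*Tgfb1* higher, *Tgfbr3* lower) with all labelled cells summed, where 4.88% of genes were higher and 9.88% lower, and 3 (*Tgfb1* and *Tgfb3* higher, *Tgfbr3* lower) at 1.5-fold, where 11.1% were higher and 15.9% lower. The ratio of *Tgfb1* ranged from 1.76 to 4.18 and that of *Tgfbr3* from 0.436 to 0.634, and the other stage ratios moved by less than 1.5 times. Of 310 single values recomputed, 265 stayed within their counting interval, 45 moved beyond it, and none that passed 2-fold changed direction. Size factors shifted the median log2 stage ratio from 0.02 to 0.01. No paired analysis was possible because each stage has 1 library. Depth limits MG1 and PO2 at E15.5 most, with 0.539% and 0.996% of the labelled UMIs, and 1 UMI in the 28 MG1 cells is 3.82 CPM.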

Other observations

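Outside the labelled clusters, cartilage marker-positive cells had UMIs of at least 2 of the 3 markers. They numbered 1441 in the E15.5 library and 313 in the E17.5 library. Their *Tgfbi* level in the E15.5 library was 229 CPM (222 to 237), against 199 CPM (148 to 260) in MG1, the highest labelled cluster. For the E17.5 library it was 157 CPM (145 to 169), against 133 CPM (117 to 150) in MG4, the highest there. Both pairs of counting intervals overlapped, so neither difference went beyond counting error. Endothelial marker-positive cells had 116 CPM of *Tgfb1* at E15.5 (24 cells) and 267 CPM at E17.5 (92 cells), the latter above the 203 CPM of OG4. Myeloid marker-positive cells had 148 and 207 CPM of *Tgfbi*, and pericyte marker-positive cells (*Rgs5*, *Kcnj8* and *Abcc9*) had 43.9 CPM of *Eng* in 112 cells at E15.5 and 69.4 CPM in 141 cells at E17.5.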
